A study of Mus musculus with 49 samples.

Results

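CT26 tumours given an antibody against PD-1 together with celecoxib were compared with CT26 tumours given vehicle. CT26 is a mouse colorectal carcinoma line, and the tumours grew in BALB/c mice. All libraries whose treatment label names both agents (16 combination tumours) and all labelled vehicle (9 tumours) were taken, which is 25 of the 49 libraries of the study. The others came from 7 tumours given celecoxib alone and 17 given anti-PD-1 alone.

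Vehicle was a mixture of DMSO-PEG400 and water given daily. For the combination, celecoxib was dosed every day at 30 mg/kg, and the antibody was given in 2 doses of 200 µg. Treatment began on day 7 after injection of the cells and was given for 7 days in every group. The tissue label places collection on day 7 of treatment and the extraction protocol names day 4, and the 2 statements cannot be reconciled from the labels.

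A further label marks each tumour's response as R or NR without a definition. All 9 vehicle tumours were NR, and the combination tumours were 12 R and 4 NR. The labels do not state that each tumour came from its own mouse, so p-values here rest on the spread between samples, which may be technical in part. The labels name no genotype, and no control antibody for the vehicle tumours.

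PD-1 is an inhibitory receptor on activated T cells, and an antibody that blocks it removes a brake on T cell killing. Celecoxib inhibits COX-2, the inducible cyclooxygenase encoded by Ptgs2, which turns arachidonic acid into the precursor of prostaglandins. Prostaglandin E2 acts through receptors encoded by Ptger genes and is known to dampen T cell, NK cell and dendritic cell activity in tumours. T cells and NK cells that recognise tumour cells secrete interferon-gamma, which raises antigen presentation genes, the GBP and IRG GTPases, the chemokines Cxcl9 and Cxcl10 and the PD-1 ligand Cd274.

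Total counts ranged from 4586727 to 13206697 over the 25 libraries, with a median of 8730438 in the vehicle and 7531651 in the combination tumours. Of the 14 colorectal epithelium markers listed, 7 were abundant enough to be tested and Cdx1 and Cdx2 had 0 counts in the compared libraries. Vil1 had 1 count in each group, and Epcam had 131 counts summed over the vehicle and 29 over the combination tumours. The mean of the tested markers was 0.68, 1.9 and 3.63 log2 CPM in the vehicle tumours and 0.92, 1.49 and 2.51 in the combination tumours (lowest, median and highest).

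Skeletal muscle and adipocyte transcripts reached high levels in single libraries. A library was taken to hold other tissue where the mean log2 CPM (counts scaled to library size, with a prior count of 2) of the muscle, skin or adipocyte list lay more than 2 above the median of the 49 libraries. By this rule 2 vehicle tumours (replicates 6 and 7) and 6 combination tumours (replicates 2, 7, 10, 13, 14 and 15) held other tissue. Combination replicate 3 fell just short, with a muscle mean of 2.018 (limit 2.033) and an adipocyte mean of 3.774 (limit 4.027). Vehicle replicate 2 had a muscle mean of 1.869. These 2 tumours were not counted as holding other tissue. The muscle list mean was -0.59, -0.26 and 2.54 in the vehicle tumours and -0.42, 0.47 and 6.26 in the combination tumours (lowest, median and highest). In the combination against vehicle, 23 of its 25 genes had an unadjusted p under 0.05, all higher, where 9.37% of all genes did. The adipocyte list was highest in vehicle replicate 6, at 6.70 against 2.47 in the next vehicle tumour. The part of this tissue in the results below was not tested beyond leaving these libraries out. The 8 libraries stayed in the values given here unless a sentence says otherwise. Fits without the libraries with other tissue left out 15 of the 49, since flagged libraries of the single-agent groups were left out as well.

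Between the combination and vehicle tumours, 10 of 13726 genes differed by edgeR's quasi-likelihood test with an adjusted p under 0.05 (0.0729%). Of these 6 rose (0.0437%) and 4 fell (0.0291%), while the median log2 fold change of all genes was 0.006 and 50.9% were positive. At an unadjusted p under 0.05 there were 2110 genes (15.4%), of which 1286 (9.37%) were higher and 824 (6.0%) lower. The genes that rose were mt-Nd5, Btaf1, Bend4, Pla2g4a, Rap2b and Atxn1, and those that fell were Fkbp5, Prlr, Msh6 and Apbb2. In whole tumours, fewer cells of a type and less RNA per cell cannot be told apart.

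The count moved with single libraries, as the plot of calls with each library left out shows. It was 157 without combination replicate 15, 44 without combination replicate 3 and 16 without combination replicate 7. It was between 2 and 5 without any 1 of the 9 vehicle tumours or of 11 combination tumours (replicates 1, 2, 4, 6, 8, 9, 10, 11, 13, 14 and 16). Fkbp5 and mt-Nd5 passed the limit in each of the 25 fits with 1 library left out. Without the libraries with other tissue, 327 of 13502 genes passed the limit (2.42%), 174 higher (1.29%) and 153 lower (1.13%), and 8 of the 10 genes were among them, all but Prlr and Pla2g4a.

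**Figure D1:**
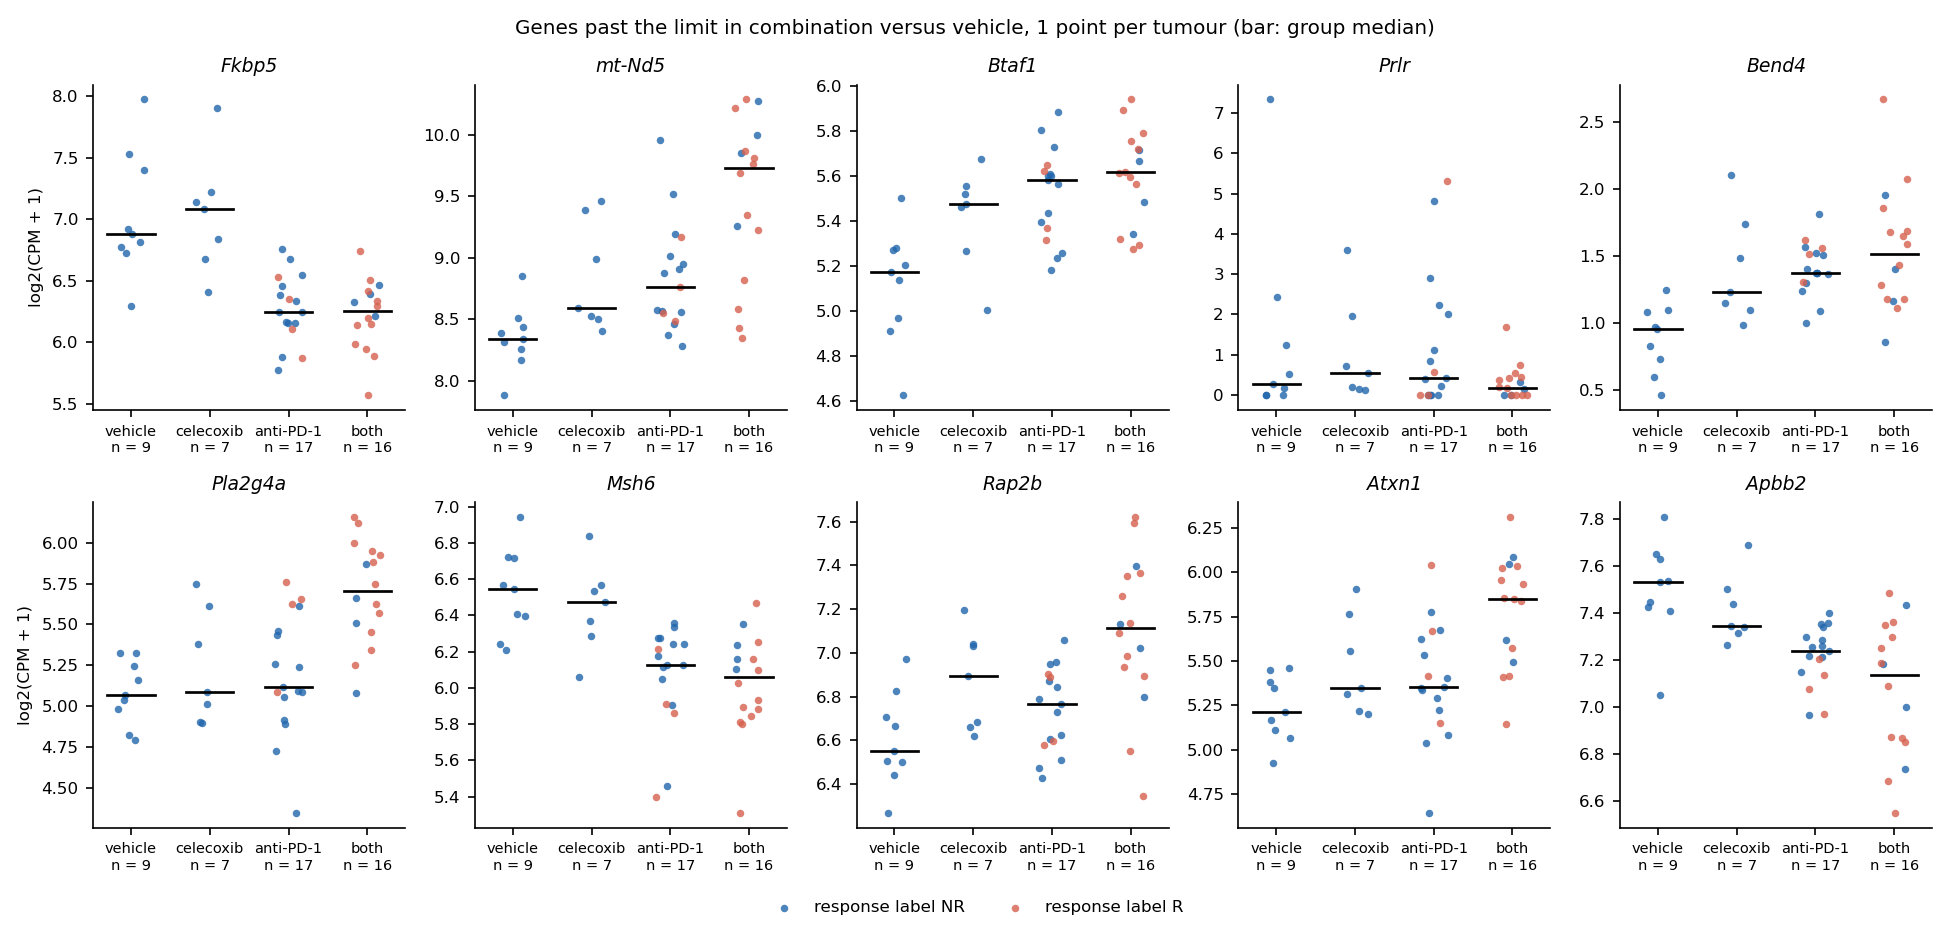
Level of the 10 genes with an adjusted p under 0.05 in each tumour, as log2(CPM + 1), by treatment, with points coloured by response label and a bar at the group median. All 16 combination tumours lay above the vehicle median for mt-Nd5, Btaf1 and Pla2g4a and below it for Fkbp5, Msh6 and Apbb2, and the vehicle level of Prlr is set apart by 1 tumour.

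**Figure D2:**
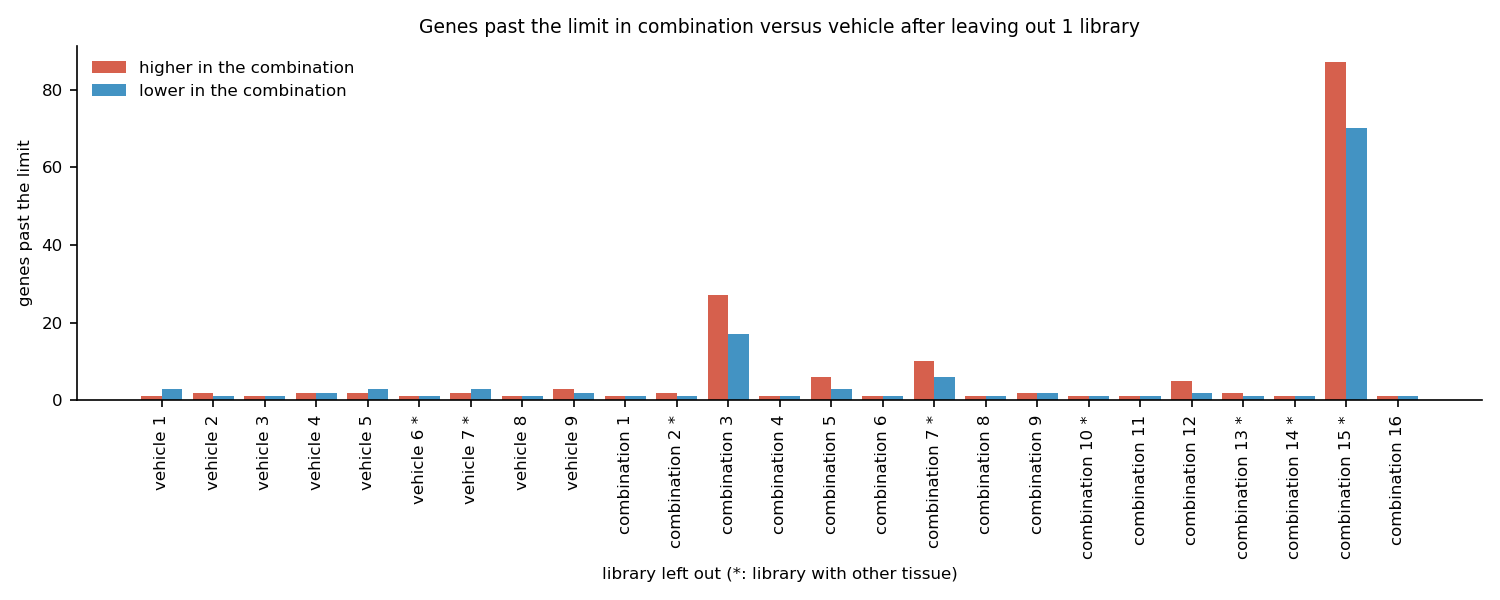
Number of genes with an adjusted p under 0.05, higher and lower in the combination, when each of the 25 compared libraries is left out in turn. The count ranged from 2 to 157, the highest without combination replicate 15.

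Fkbp5 encodes a co-chaperone of steroid hormone receptors and is a strong target of the glucocorticoid receptor (chr17:28399094-28517527, minus strand, GRCm38). It had lowest, median and highest values of 77.7, 117 and 251 CPM in the vehicle tumours and 46.5, 75.3 and 106 CPM in the combination tumours. All 16 combination tumours were below the vehicle median and 9 were below the lowest vehicle tumour, though the groups overlapped. The fitted log2 fold change was -0.88 (SE 0.15, adjusted p = 0.0022) by edgeR. Against celecoxib alone, whose median was 134 CPM, the difference was -0.87 (SE 0.16, adjusted p = 0.00824). Against anti-PD-1 alone, whose median was 74.8 CPM, it was -0.051 (SE 0.13, adjusted p = 0.868). The edgeR differences of the single agents from the same vehicle tumours were -0.013 (SE 0.18, adjusted p = 1) for celecoxib and -0.83 (SE 0.15, adjusted p = 0.00112) for anti-PD-1. The lower level was thus found in both groups that received the antibody, and these comparisons share tumours.

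Other targets of the glucocorticoid receptor were lower by value, but Fkbp5 alone of the 14 tested list members passed the limit. Of these 14, 13 had a negative log2 fold change with a median of -0.55, and 5 had an unadjusted p under 0.05, all lower, where 6.0% of all genes did. Tsc22d3, which encodes the anti-inflammatory protein GILZ, had lowest, median and highest values of 59.4, 209 and 347 CPM in the vehicle tumours and 73.1, 114 and 212 CPM in the combination tumours. This was a log2 fold change of -0.79 (SE 0.23, adjusted p = 0.147) by edgeR, with 15 of 16 combination tumours below the vehicle median. Zbtb16, a transcription factor gene induced by glucocorticoids, had lowest, median and highest values of 0.257, 1.08 and 29.5 CPM in the vehicle tumours and 0, 0.559 and 2.46 CPM in the combination tumours. The highest vehicle value of Zbtb16 was that of replicate 6, the tumour with the adipocyte transcripts, and its log2 fold change was -2.36 (SE 0.67, adjusted p = 0.147) by edgeR. Sgk1, a kinase gene of the same list, had a log2 fold change of -0.29 (SE 0.17, adjusted p = 0.411). With anti-PD-1 alone the median of the list was -0.57, and with celecoxib alone it was -0.38, against the same vehicle tumours. The median was -0.49 without the libraries with other tissue, where Zbtb16 was too low to test.

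mt-Nd5 encodes a subunit of respiratory complex I and lies in the mitochondrial genome, positions 11742 to 13565 of the plus strand. It had lowest, median and highest values of 235, 322 and 462 CPM in the vehicle tumours and 325, 848 and 1251 CPM in the combination tumours. Of the 16 combination tumours 12 were above the highest vehicle tumour and all were above the vehicle median. The log2 fold change was 1.24 (SE 0.21, adjusted p = 0.0022) by edgeR. It was 1.13 (SE 0.22, adjusted p = 0.0234) for the combination tumours labelled R and 1.52 (SE 0.27, adjusted p = 0.0157) for those labelled NR, each against vehicle in 1 edgeR fit of treatment and response. mt-Nd5 was the 1 gene of 14247 (0.00702%) past the limit for the NR tumours, and 12 (0.0842%) passed for the R tumours, 7 higher (0.0491%) and 5 lower (0.0351%). With 4 NR and 12 R tumours the tests differ in power, so these counts do not compare the size of the response. It also differed from anti-PD-1 alone, by 0.71 (SE 0.17, adjusted p = 0.0364) in edgeR. The 3′ end of mt-Nd5 overlaps mt-Nd6 on the other strand, with the strand setting of the counting not given in the sources used here, so reads of the pair may be mixed.

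The other mitochondrially encoded transcripts tested had positive values of unequal size, and 7 of the 13 listed could be tested. mt-Co2, mt-Co3, mt-Atp8 and mt-Nd4l had 0 counts in the compared libraries. Summed counts in the vehicle and combination tumours were 1 and 0 for mt-Atp6 and 5 and 31 for mt-Nd3. Why these genes had so few counts was not tested. The list values therefore cover the 7 tested transcripts only, and how completely those were counted is not known. mt-Nd2, another complex I gene, had lowest, median and highest values of 994, 1933 and 3199 CPM in the vehicle tumours and 1192, 4932 and 7525 CPM in the combination tumours, and 10 combination tumours exceeded the highest vehicle tumour. Its log2 fold change was 1.23 (SE 0.31, adjusted p = 0.0969) by edgeR. mt-Co1, a subunit of cytochrome oxidase, had lowest, median and highest values of 375, 636 and 989.6 CPM in the vehicle tumours and 624, 999.6 and 1635 CPM in the combination tumours, with a log2 fold change of 0.74 (SE 0.17, adjusted p = 0.0754). Both passed the limit of the edgeR test without the libraries with other tissue, at an adjusted p of 0.0491 for mt-Nd2 and 0.0497 for mt-Co1. mt-Nd6 had a log2 fold change of 1.41 (SE 0.55, adjusted p = 0.222), mt-Nd4 of 0.46 (SE 0.25, adjusted p = 0.373), mt-Cytb of 0.25 (SE 0.18, adjusted p = 0.485) and mt-Nd1 of 0.049 (SE 0.14, adjusted p = 0.89). The value of mt-Nd1 was smaller than its SE, and its sign was negative without the libraries with other tissue (-0.043). The list mean, in log2 CPM, was 8.78, 9.47 and 9.99 in the vehicle tumours and 9.31, 10.26 and 10.78 in the combination tumours. It was above the highest vehicle tumour in 11 of 16, including 4 of the 4 labelled NR.

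Nuclear genes of the respiratory chain leaned the other way. Of 37 tested, 33 had a negative log2 fold change, with a median of -0.17, and 5 had an unadjusted p under 0.05, all lower, where 6.0% of all genes did. None of them passed the limit. Cox4i1, a subunit of cytochrome oxidase, had lowest, median and highest values of 468, 532 and 727 CPM in the vehicle tumours and 317, 461 and 609 CPM in the combination tumours. The fitted log2 fold change was -0.33 (SE 0.11, adjusted p = 0.168) by edgeR. Atp5b, the catalytic beta subunit of ATP synthase, had a log2 fold change of -0.36 (SE 0.14, adjusted p = 0.211), and the complex I gene Ndufs1 of -0.26 (SE 0.11, adjusted p = 0.267). Genes of cytosolic ribosomal proteins were similar, with 38 of 39 negative, a median of -0.30 and 10 at an unadjusted p under 0.05, all lower, against the same 6.0%. Rpl38 had lowest, median and highest values of 770.2, 1036 and 1277 CPM in the vehicle tumours and 567, 717 and 1216 CPM in the combination tumours, and 9 combination tumours were below the lowest vehicle tumour. This was a log2 fold change of -0.41 (SE 0.11, adjusted p = 0.14), that of Rpl8 -0.34 (SE 0.10, adjusted p = 0.147) and that of Rpl14 -0.39 (SE 0.13, adjusted p = 0.174), by edgeR. Without the libraries with other tissue the median was -0.28 for the respiratory chain list, with 2 of 37 genes past the limit on the lower side, and -0.45 for the ribosomal list, with 4 of 39, against 1.13% of all genes. Ribosomal protein genes have near-identical processed copies in the genome, so their counts are uncertain to that extent.

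**Figure D3:**
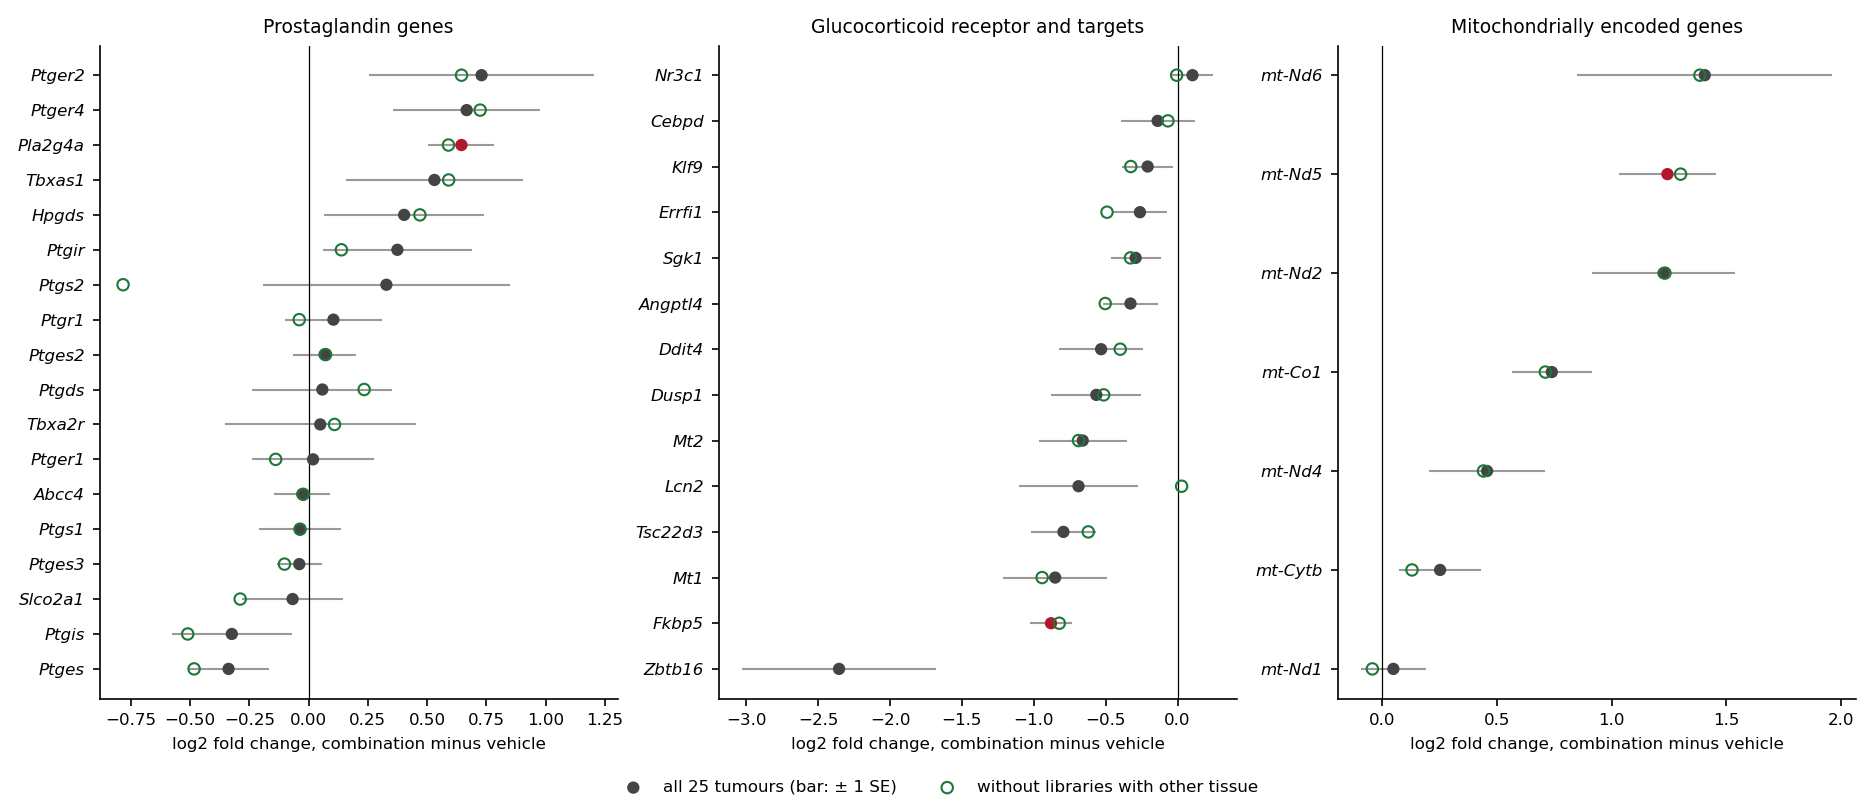
Log2 fold change of the combination against vehicle for tested prostaglandin genes, glucocorticoid receptor targets and mitochondrially encoded genes. Bars are 1 SE from edgeR, and open points are the fit without libraries with other tissue. The mitochondrial values run from near 0 (mt-Nd1) to above 1 (mt-Nd5, mt-Nd2 and mt-Nd6), and most glucocorticoid receptor targets lie below 0.

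Pla2g4a was the 1 gene of the prostaglandin pathway that passed the limit. It encodes cytosolic phospholipase A2, which frees arachidonic acid, the substrate of both cyclooxygenases, from membrane lipids (chr1:149829618-149961290, minus strand, GRCm38). It had lowest, median and highest values of 26.8, 32.5 and 39.1 CPM in the vehicle tumours and 32.8, 51.2 and 70.3 CPM in the combination tumours. All 16 combination tumours were above the vehicle median and 14 above the highest vehicle tumour, so the groups overlapped little. The log2 fold change was 0.64 (SE 0.14, adjusted p = 0.0436) by edgeR, and 0.59 (SE 0.17, adjusted p = 0.0508) without the libraries with other tissue. Against celecoxib alone (median 32.9 CPM) the difference was 0.46 (SE 0.15, adjusted p = 0.834), and against anti-PD-1 alone (median 33.7 CPM) it was 0.50 (SE 0.11, adjusted p = 0.0336), in the same edgeR fit. The call was lost in 20 of the 25 fits with 1 library left out, with a log2 fold change between 0.60 and 0.68.

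The target of celecoxib and the enzymes after it did not pass the limit. Ptgs2 (COX-2) had lowest, median and highest values of 7.19, 12 and 60.6 CPM in the vehicle tumours and 1.62, 10.6 and 77.5 CPM in the combination tumours. The highest vehicle value was that of replicate 8, and the next was 16.4 CPM. Its log2 fold change was 0.33 (SE 0.52, adjusted p = 0.78) by edgeR, and -0.78 without the libraries with other tissue, so no direction can be given. Ptgs1, the constitutive cyclooxygenase COX-1, had lowest, median and highest values of 45.5, 74.7 and 132 CPM in the vehicle tumours and 35.5, 89.4 and 122 CPM in the combination tumours, with a log2 fold change of -0.035 (SE 0.17, adjusted p = 0.941). Ptges, the inducible prostaglandin E synthase, had lowest, median and highest values of 67.1, 88.8 and 216 CPM in the vehicle tumours and 46.5, 82.1 and 152 CPM in the combination tumours, with a log2 fold change of -0.34 (SE 0.17, adjusted p = 0.329).

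Of the receptors for prostaglandin E2, Ptger4 had lowest, median and highest values of 2.75, 11.4 and 19.2 CPM in the vehicle tumours and 2.32, 17.5 and 40.3 CPM in the combination tumours, with 7 combination tumours above the highest vehicle tumour. The fitted log2 fold change was 0.67 (SE 0.31, adjusted p = 0.297) by edgeR. Ptger2 had lowest, median and highest values of 0.25, 1.52 and 1.81 CPM in the vehicle tumours and 0.145, 1.78 and 9.16 CPM in the combination tumours, with a log2 fold change of 0.73 (SE 0.47, adjusted p = 0.448). Vehicle replicate 8 was the lowest vehicle tumour for both receptors. Of the 18 tested genes of the pathway, 12 had a positive log2 fold change. Their median was 0.062, from 0.029 without combination replicate 1 to 0.13 without vehicle replicate 2, and 2 had an unadjusted p under 0.05, each higher. That count is close to the 9.37% of all genes that were higher at that limit. Ptger3, Ptgfr, Hpgd and Ptgdr were too low to test.

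Msh6 fell. It encodes a subunit of the complex that recognises mismatched bases in DNA (chr17:87975062-87990892, plus strand, GRCm38), and had lowest, median and highest values of 73, 92.3 and 122 CPM in the vehicle tumours and 38.6, 65.8 and 87.4 CPM in the combination tumours. All 16 combination tumours were below the vehicle median and 12 below the lowest vehicle tumour, for a log2 fold change of -0.51 (SE 0.11, adjusted p = 0.0436) by edgeR. The call held in 8 of the 25 fits with 1 library left out, with the log2 fold change of Msh6 from -0.55 to -0.45. The difference from celecoxib alone (median 87.9 CPM) was -0.43 (SE 0.12, adjusted p = 0.545) and that from anti-PD-1 alone (median 68.9 CPM) was -0.043 (SE 0.093, adjusted p = 0.846). Of the 31 tested DNA replication and mismatch repair genes, 27 had a negative log2 fold change, with a median of -0.17. An unadjusted p under 0.05 was found in 5, all lower and Msh6 included, where 6.0% of all genes were lower at that limit. Cdt1, which loads the replicative helicase, had lowest, median and highest values of 94.5, 114 and 139 CPM in the vehicle tumours and 67, 92.9 and 105 CPM in the combination tumours. All 16 combination tumours were below the vehicle median of Cdt1, and its log2 fold change was -0.33 (SE 0.11, adjusted p = 0.175) by edgeR. Rpa1, a single-strand DNA binding protein, had a log2 fold change of -0.36 (SE 0.13, adjusted p = 0.202).

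No proliferation gene passed the limit. The median over 24 genes was -0.10, or -0.031 without combination replicate 14, with 17 negative, and 2 had an unadjusted p under 0.05, each lower. That count is close to the 6.0% of all genes that were lower at that limit. Against vehicle the median was -0.25 for the combination tumours labelled R, with 4 of 24 positive. It was 0.16 for those labelled NR, with 17 positive. Mki67, the marker Ki-67, had lowest, median and highest values of 100.1, 128 and 167 CPM in the vehicle tumours and 80.9, 161 and 232 CPM in the combination tumours, with a log2 fold change of 0.29 (SE 0.16, adjusted p = 0.371). Rrm2, a subunit of ribonucleotide reductase, had a log2 fold change of -0.50 (SE 0.20, adjusted p = 0.228).

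Genes outside the pathways listed made up the other calls. Btaf1 (chr19:36926079-37012752, plus strand), whose product removes the TATA-binding protein from DNA, had lowest, median and highest values of 23.7, 35 and 44.4 CPM in the vehicle tumours and 37.7, 48.1 and 60.5 CPM in the combination tumours. The combination values lay above the highest vehicle tumour in 11 of 16, and the log2 fold change was 0.49 (SE 0.10, adjusted p = 0.0391) by edgeR. Bend4 (chr5:67392147-67428310, minus strand), which encodes a BEN domain protein, had lowest, median and highest values of 0.375, 0.936 and 1.37 CPM in the vehicle tumours and 0.809, 1.85 and 5.35 CPM in the combination tumours. It was above the highest vehicle tumour in 11 of 16, with a log2 fold change of 1.22 (SE 0.26, adjusted p = 0.0436). Atxn1 (chr13:45549755-45965008, minus strand), which encodes the transcriptional regulator ataxin-1, had lowest, median and highest values of 29.4, 36.1 and 43.1 CPM in the vehicle tumours and 34.4, 56.8 and 78.4 CPM in the combination tumours. It exceeded the highest vehicle tumour in 13 of 16, with a log2 fold change of 0.58 (SE 0.13, adjusted p = 0.0436). Rap2b (chr3:61361638-61368430, plus strand), a small GTPase of the Ras family, had lowest, median and highest values of 76.1, 92.8 and 124 CPM in the vehicle tumours and 80.4, 137 and 196 CPM in the combination tumours, with a log2 fold change of 0.52 (SE 0.11, adjusted p = 0.0436). Apbb2 (chr5:66298703-66618784, minus strand), an adaptor that binds the amyloid precursor protein, had lowest, median and highest values of 132, 184 and 223 CPM in the vehicle tumours and 92.5, 139.8 and 178 CPM in the combination tumours. It was below the lowest vehicle tumour in 7 of 16, with a log2 fold change of -0.41 (SE 0.091, adjusted p = 0.0436). Of the fits with 1 library left out, Btaf1 passed in 12 of 25, Bend4 in 6, and Rap2b, Atxn1 and Apbb2 in 5 each. Their log2 fold changes stayed near the values above, Btaf1 from 0.43 to 0.54, Bend4 from 1.06 to 1.33, Rap2b from 0.48 to 0.57, Atxn1 from 0.53 to 0.63 and Apbb2 from -0.48 to -0.37.

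Prlr, the prolactin receptor gene (chr15:10177238-10349180, plus strand), had lowest, median and highest values of 0, 0.218 and 161 CPM in the vehicle tumours and 0, 0.139 and 2.22 CPM in the combination tumours. The highest value was that of vehicle replicate 6, the tumour with the adipocyte transcripts, and the next vehicle tumour was at 4.39 CPM. The log2 fold change of Prlr was -5.76 (SE 1.22, adjusted p = 0.0436) by edgeR, -1.44 without that tumour and -2.86 (SE 1.23, adjusted p = 0.164) without all libraries with other tissue, so the call rests on 1 library.

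Genes that interferon-gamma induces were higher by value in the combination tumours, although none passed the limit with all libraries. All 39 tested list members had a positive log2 fold change, with a median of 0.71, and 12 had an unadjusted p under 0.05, all higher, where 9.37% of all genes did. Interferon-gamma activated sequences (GAS) are found before many such genes, and IRF factors bind interferon-stimulated response elements (ISRE). The 250 bases before the start of 4 members are shown 5′ to 3′ to place these letters, with matches in capitals, from RefSeq on GRCm38.p6. The 4 were chosen after their values were seen. Where a gene had several windows, the one with the most GAS and then the most ISRE matches was shown.
Socs1 promoter, chr16:10785537-10785786, minus strand: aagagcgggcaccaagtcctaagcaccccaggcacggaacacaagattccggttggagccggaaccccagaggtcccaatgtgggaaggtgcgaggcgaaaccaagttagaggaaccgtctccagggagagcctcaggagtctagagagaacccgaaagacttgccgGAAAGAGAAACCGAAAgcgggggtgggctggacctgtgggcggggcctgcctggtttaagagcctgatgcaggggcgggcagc
Irf1 promoter, chr11:53769764-53770013, plus strand: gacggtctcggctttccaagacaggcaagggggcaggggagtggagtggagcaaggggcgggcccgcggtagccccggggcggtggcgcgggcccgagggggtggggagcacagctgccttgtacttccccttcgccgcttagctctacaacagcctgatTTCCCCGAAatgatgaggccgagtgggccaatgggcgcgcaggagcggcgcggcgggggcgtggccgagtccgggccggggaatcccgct
Gbp7 promoter, chr3:142530086-142530335, plus strand: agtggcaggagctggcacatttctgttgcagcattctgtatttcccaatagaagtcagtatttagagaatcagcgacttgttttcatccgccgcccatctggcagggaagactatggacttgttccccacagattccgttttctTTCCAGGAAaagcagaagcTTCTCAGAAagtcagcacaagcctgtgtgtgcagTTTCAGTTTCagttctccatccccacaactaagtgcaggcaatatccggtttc
Igtp promoter, chr11:58199306-58199555, plus strand: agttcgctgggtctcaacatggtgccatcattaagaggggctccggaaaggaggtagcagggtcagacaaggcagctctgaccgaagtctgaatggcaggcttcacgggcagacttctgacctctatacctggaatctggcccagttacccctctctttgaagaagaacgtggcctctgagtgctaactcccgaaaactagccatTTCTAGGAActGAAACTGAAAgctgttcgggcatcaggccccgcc
The search used TTCNNNGAA for GAS and a pair of TTTC with 2 bases between for ISRE on both strands. Socs1 held a pair of ISRE matches that overlap each other, 83 to 74 and 77 to 68 bases before the start. Irf1 held a GAS match at 90 to 82. Gbp7 held GAS matches at 106 to 98 and 87 to 79 and an ISRE match at 53 to 44, and Igtp a GAS match at 45 to 37 and an ISRE match at 34 to 25. Promoters could be matched for 26 of the 39 genes (30 windows), of which 33.3% held a GAS match, 36.7% an ISRE match and 53.3% either. Over all 32851 windows of this length that were searched, the shares were 7.02%, 2.98% and 9.66%. A GAS match overlapped an ISRE match in 18 windows, 0 of them in the list. A match describes the letters and is not evidence of binding.

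Socs1, the feedback inhibitor of interferon-gamma signalling, had lowest, median and highest values of 15.8, 28.1 and 36.5 CPM in the vehicle tumours and 14.2, 50.7 and 188 CPM in the combination tumours. Of the combination tumours, 12 of 16 were above the highest vehicle tumour and 1 was below the lowest. This was a log2 fold change of 1.22 (SE 0.31, adjusted p = 0.0962) by edgeR and 1.42 (SE 0.34, adjusted p = 0.0337) without the libraries with other tissue. Irf1, a transcription factor that interferon-gamma induces, had lowest, median and highest values of 262, 385 and 729 CPM in the vehicle tumours and 267, 837 and 1582 CPM in the combination tumours. Its log2 fold change was 0.95 (SE 0.32, adjusted p = 0.183) by edgeR and 1.36 (SE 0.37, adjusted p = 0.0457) without the libraries with other tissue. Cd274, which encodes the PD-1 ligand PD-L1, had lowest, median and highest values of 9.87, 18.3 and 27.4 CPM in the vehicle tumours and 10.2, 61.3 and 161 CPM in the combination tumours. It was above the highest vehicle tumour in 13 of 16 combination tumours, and the log2 fold change was 1.6 (SE 0.43, adjusted p = 0.129). Gbp7, a guanylate-binding GTPase, had lowest, median and highest values of 160.2, 454 and 653 CPM in the vehicle tumours and 185, 819 and 1216 CPM in the combination tumours, with a log2 fold change of 0.84 (SE 0.36, adjusted p = 0.249). Igtp, an immunity-related GTPase also called Irgm3, had lowest, median and highest values of 109.8, 338 and 408 CPM in the vehicle tumours and 72.4, 436 and 725 CPM in the combination tumours, with a log2 fold change of 0.57 (SE 0.42, adjusted p = 0.507). Tgtp1 had a log2 fold change of 1.69 (SE 0.53, adjusted p = 0.161), though its copy Tgtp2 is nearly identical and counts may be divided between them.

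The chemokine genes Cxcl9 and Cxcl10, whose products attract T cells, spread widely. Cxcl9 had lowest, median and highest values of 116, 386 and 594 CPM in the vehicle tumours and 59.5, 578 and 1148 CPM in the combination tumours, with a log2 fold change of 0.71 (SE 0.52, adjusted p = 0.509). Cxcl10 had a log2 fold change of 0.64 (SE 0.43, adjusted p = 0.457) and Gbp2 of 0.84 (SE 0.40, adjusted p = 0.307) by edgeR. B2m, the light chain of MHC class I, had lowest, median and highest values of 4261, 4479 and 8347 CPM in the vehicle tumours and 3808, 7653 and 9741 CPM in the combination tumours, with a log2 fold change of 0.35 (SE 0.17, adjusted p = 0.325). Without the libraries with other tissue, 3 members (Socs1, Irf1 and Tgtp1) passed the limit, against 1.29% of all genes that were higher there.

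**Figure D4:**
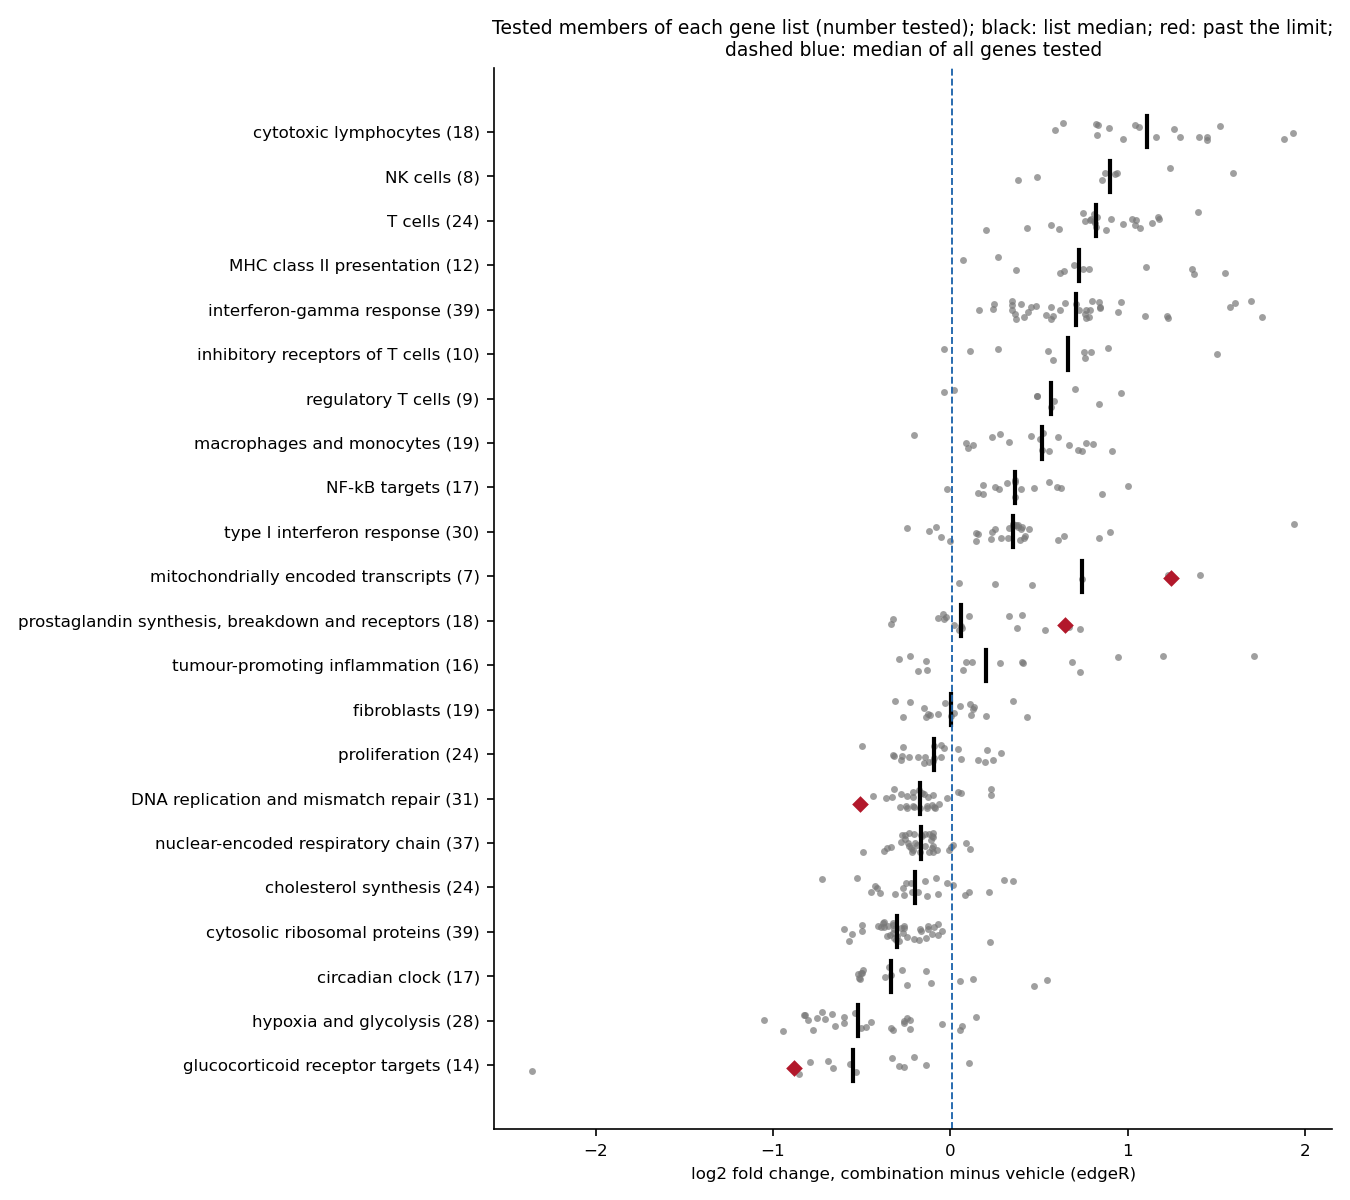
Log2 fold change of the combination against vehicle for the tested members of 22 gene lists, with 1 point per gene and the list median marked. All members of the interferon-gamma, MHC class II, T cell, cytotoxic and NK lists lie above 0, and most of the ribosomal, respiratory chain, hypoxia and glucocorticoid lists lie below it.

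Antigen presentation by MHC class II showed the same direction in each of its 12 tested genes, with a median of 0.72 and 5 at an unadjusted p under 0.05. Of all genes, 9.37% were higher at that limit. Ciita, the master regulator of these genes, had lowest, median and highest values of 1.25, 2.74 and 7.84 CPM in the vehicle tumours and 1.01, 6.64 and 28.3 CPM in the combination tumours. The fitted log2 fold change was 1.55 (SE 0.52, adjusted p = 0.181) by edgeR. H2-Aa, the alpha chain of a class II molecule, had lowest, median and highest values of 209.8, 578 and 847 CPM in the vehicle tumours and 265, 923 and 3999 CPM in the combination tumours, and 9 combination tumours exceeded the highest vehicle tumour. This was a log2 fold change of 1.37 (SE 0.45, adjusted p = 0.177), and that of H2-Eb1 was 1.36 (SE 0.49, adjusted p = 0.195).

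Lymphocyte genes were higher by value too. All 24 tested T cell genes had a positive log2 fold change with a median of 0.82, and 5 had an unadjusted p under 0.05. For cytotoxic lymphocytes it was 18 of 18 with a median of 1.11 and 9 at that limit, and for NK cells 8 of 8 with a median of 0.90 and 1, where 9.37% of all genes were higher at that limit. The NK cell count is close to that share. With limma-voom the medians were 0.72 for cytotoxic lymphocytes and 0.57 for NK cells. Cd3e, a chain of the T cell receptor complex, had lowest, median and highest values of 1.5, 5.83 and 16.4 CPM in the vehicle tumours and 0.725, 11.5 and 40.8 CPM in the combination tumours, with a log2 fold change of 1.04 (SE 0.52, adjusted p = 0.325). Cd8a had lowest, median and highest values of 0.549, 8.93 and 25 CPM in the vehicle tumours and 0, 15.9 and 84.7 CPM in the combination tumours, with a log2 fold change of 1.07 (SE 0.78, adjusted p = 0.504). Both genes spread over a wide range within the combination, and the groups overlapped. Tbx21, the T-bet factor of type 1 lymphocytes, had lowest, median and highest values of 1.12, 4.36 and 7.79 CPM in the vehicle tumours and 0.435, 8.1 and 38.9 CPM in the combination tumours, with a log2 fold change of 1.45 (SE 0.48, adjusted p = 0.18). Ccl3 had a log2 fold change of 1.93 (SE 0.63, adjusted p = 0.178) and Ccl4 of 1.45 (SE 0.50, adjusted p = 0.186), both chemokines of activated lymphocytes and macrophages. The perforin gene Prf1 had lowest, median and highest values of 0.25, 1.16 and 3.92 CPM in the vehicle tumours and 0, 4.79 and 14.4 CPM in the combination tumours, with 8 combination tumours above the highest vehicle tumour and 2 below the lowest. Its log2 fold change was 1.88 (SE 0.68, adjusted p = 0.195) by edgeR. Gzmb, encoding granzyme B, had a log2 fold change of 1.26 (SE 0.56, adjusted p = 0.272), Ifng of 1.52 (SE 0.70, adjusted p = 0.296) and the NK receptor gene Klrc1 of 1.59 (SE 0.61, adjusted p = 0.211).

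Among inhibitory receptors of T cells, 9 of 10 had a positive log2 fold change with a median of 0.67. It was 0.38 without combination replicate 1 and 0.16 with limma-voom. Pdcd1, which encodes PD-1, the target of the antibody, had lowest, median and highest values of 0.659, 8.57 and 21.8 CPM in the vehicle tumours and 0, 11.3 and 73.8 CPM in the combination tumours. The fitted log2 fold change was 0.75 (SE 0.74, adjusted p = 0.631), a value about the size of its SE. Adora2a, an adenosine receptor gene, had a log2 fold change of 1.5 (SE 0.44, adjusted p = 0.147) by edgeR, and of 1.95 (SE 0.47, adjusted p = 0.0337) without the libraries with other tissue. Regulatory T cell genes were positive in 8 of 9, with a median of 0.57. Their defining factor Foxp3 had lowest, median and highest values of 0.375, 1.66 and 4.24 CPM in the vehicle tumours and 0.145, 2.64 and 8.98 CPM in the combination tumours, with a log2 fold change of 0.70 (SE 0.40, adjusted p = 0.381), and Ikzf2 had a log2 fold change of 0.84 (SE 0.29, adjusted p = 0.19).

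The 12 combination tumours labelled R and the 4 labelled NR were compared with vehicle separately in 1 fit. The median of the interferon-gamma list was 0.85 for R, with 39 of 39 positive, and 0.034 for NR, with 21 positive. For T cells it was 1.06 and -0.22, for cytotoxic lymphocytes 1.3 and -0.10, and for MHC class II 0.88 and -0.013. The interferon-gamma list mean, in log2 CPM, was 5.46, 6.61 and 6.997 in the vehicle tumours, 5.36, 7.44 and 8.05 in the R tumours and 5.43, 6.43 and 7.3 in the NR tumours (lowest, median and highest). It was above the highest vehicle tumour in 10 of 12 R tumours and in 1 of 4 NR tumours.

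The difference itself was tested by edgeR as R against NR. Of 14247 genes, 0 passed the limit (0.0%), and 1298 had an unadjusted p under 0.05 (9.11%), 752 higher in R (5.28%) and 546 lower (3.83%). All 39 interferon-gamma genes tested were higher in R by value, with a median of 0.80, and the median was 1.39 for T cells and 1.56 for cytotoxic lymphocytes. Other lists were higher in R by value as well. Skeletal muscle was positive in 25 of 25 with a median of 3.27, and adipocytes in 11 of 11 with 2.62. Hypoxia and glycolysis was positive in 27 of 28 with a median of 0.89, and neutrophils in 6 of 7 with 1.24. Lower in R by value were proliferation in 23 of 24 with a median of -0.34 and cholesterol synthesis in 23 of 24 with -0.37. DNA replication and mismatch repair was lower in 27 of 31 with -0.15. The part of these lists in the immune values was not tested. Prf1 had a log2 fold change of 1.94 (SE 0.94, adjusted p = 0.541) and Cxcl9 of 1.1 (SE 0.74, adjusted p = 0.645) in that contrast. The mitochondrially encoded list had a median of 0.74 for R and 1.12 for NR against vehicle, and the glucocorticoid list -0.41 and -0.82. With 1 library left out, the median for all combination tumours ranged from 0.53 (without combination replicate 13) to 0.80 (without vehicle replicate 5) for the interferon-gamma list and from 0.66 (without combination replicate 1) to 0.99 (without vehicle replicate 5) for T cells. Combination replicate 15, labelled R, had the lowest mean of the T cell, cytotoxic, NK and MHC class II lists and the highest muscle mean, 6.26, and vehicle replicate 8 had the lowest interferon-gamma mean of the vehicle tumours. The part of tumour composition in these values was not tested.

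**Figure D5:**
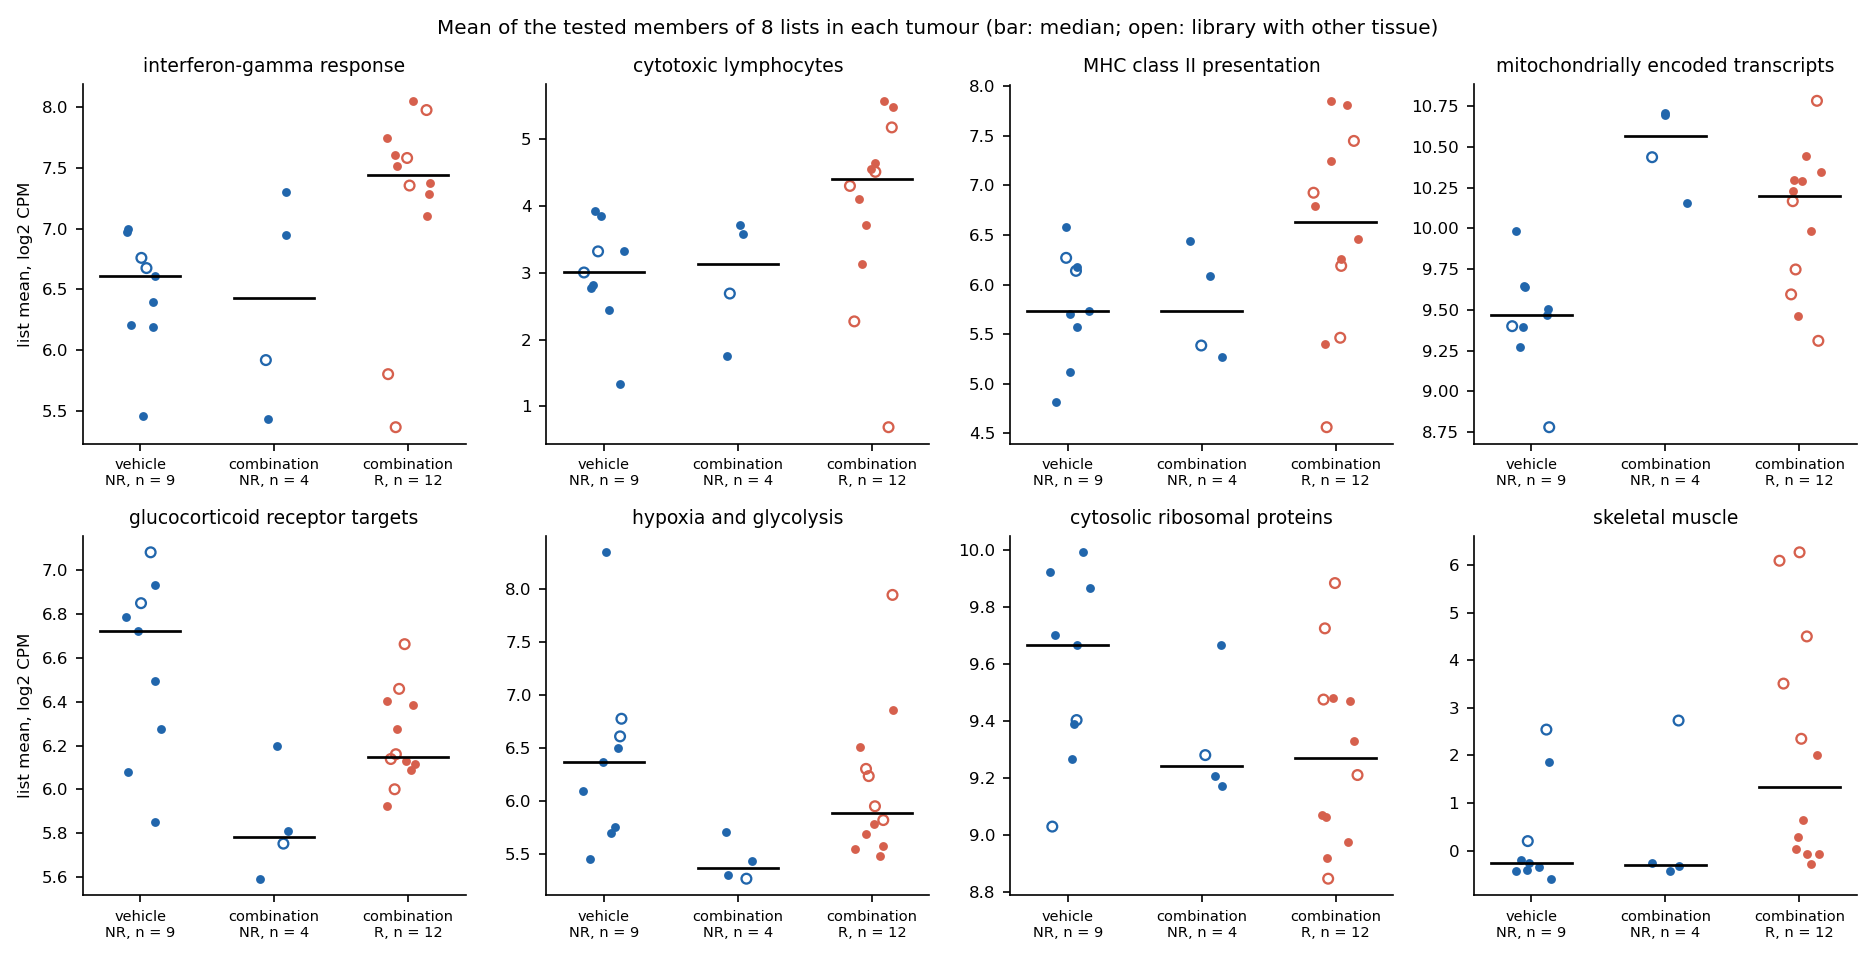
Mean log2 CPM of 8 gene lists in each vehicle, combination NR and combination R tumour, with open points for libraries that hold other tissue. For the interferon-gamma list 10 of 12 combination R tumours and 1 of 4 combination NR tumours lie above the highest vehicle tumour, and for the mitochondrially encoded list 4 of 4 NR tumours do.

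Myeloid genes followed with smaller values. Of 19 macrophage and monocyte genes, 18 had a positive log2 fold change, with a median of 0.52 and 4 at an unadjusted p under 0.05. These 4 were higher, as were 9.37% of all genes at that limit. C1qa, a complement gene of tissue macrophages, had lowest, median and highest values of 81.1, 472 and 732 CPM in the vehicle tumours and 87.4, 642 and 1707 CPM in the combination tumours, with a log2 fold change of 0.80 (SE 0.37, adjusted p = 0.295). Csf1r, the receptor for the macrophage growth factor, had a log2 fold change of 0.72 (SE 0.33, adjusted p = 0.296), and Xcr1, the chemokine receptor of type 1 dendritic cells, of 1.35 (SE 0.55, adjusted p = 0.231). NF-kB targets were positive in 16 of 17, with a median of 0.36, and 10 had an unadjusted p under 0.05, all higher, against the same 9.37%. Tnfaip2, a gene induced by TNF, had lowest, median and highest values of 111, 144 and 234 CPM in the vehicle tumours and 152, 187 and 389 CPM in the combination tumours. All 16 combination tumours were above the vehicle median, for a log2 fold change of 0.56 (SE 0.16, adjusted p = 0.147) by edgeR and 0.62 (SE 0.16, adjusted p = 0.0378) without the libraries with other tissue. Cd40 had a log2 fold change of 1.001 (SE 0.41, adjusted p = 0.231). Of the type I interferon genes 25 of 30 were positive, with a median of 0.35. Ifi44l had lowest, median and highest values of 0.139, 0.963 and 2.29 CPM in the vehicle tumours and 0, 2.83 and 10.4 CPM in the combination tumours, with a log2 fold change of 1.94 (SE 0.55, adjusted p = 0.147), and Xaf1 had a log2 fold change of 0.84 (SE 0.28, adjusted p = 0.179). Without the libraries with other tissue 3 of its 30 tested genes passed the limit, against 1.29% of all genes.

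Genes of tumour-promoting inflammation, some of which prostaglandin E2 is known to raise, had no common direction over all combination tumours. Of 16 tested, 11 were positive, with a median of 0.20, or 0.12 without combination replicate 6. An unadjusted p under 0.05 was found in 4, all higher, where 9.37% of all genes were higher at that limit. Without the libraries with other tissue 8 were positive, with a median of -0.076. Against vehicle the median was 0.24 for the R tumours, with 12 positive, and -0.46 for the NR tumours, with 3 positive. In R against NR, 15 of 16 were higher in R by value, with a median of 0.87. Cxcl1, a chemokine for neutrophils, had lowest, median and highest values of 6.67, 10.2 and 14.6 CPM in the vehicle tumours and 4.69, 13.5 and 67.9 CPM in the combination tumours, with a log2 fold change of 0.94 (SE 0.37, adjusted p = 0.221). Tnf had a log2 fold change of 1.2 (SE 0.47, adjusted p = 0.218), Il1b of 0.085 (SE 0.31, adjusted p = 0.918), Arg1 of -0.13 (SE 0.38, adjusted p = 0.891) and Vegfa of -0.23 (SE 0.39, adjusted p = 0.797). Nos2, the inducible nitric oxide synthase, had lowest, median and highest values of 0.648, 2.48 and 10.9 CPM in the vehicle tumours and 0.324, 3.14 and 89.9 CPM in the combination tumours. This was a log2 fold change of 1.71 (SE 0.71, adjusted p = 0.239), but -0.16 without the libraries with other tissue, so no direction can be given. Il6 was too low to test, with summed counts of 16 in the vehicle and 29 in the combination tumours.

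Hypoxia and glycolysis genes were negative in 25 of 28, with a median of -0.52, and 3 had an unadjusted p under 0.05, all lower, where 6.0% of all genes did. Ldha, lactate dehydrogenase A, had lowest, median and highest values of 871, 1092 and 2826 CPM in the vehicle tumours and 363, 590.3 and 2558 CPM in the combination tumours, with 12 combination tumours below the lowest vehicle tumour. Its log2 fold change was -0.65 (SE 0.27, adjusted p = 0.236) by edgeR and -1.03 (SE 0.26, adjusted p = 0.0371) without the libraries with other tissue. Tpi1, a glycolytic isomerase, had a log2 fold change of -0.54 (SE 0.24, adjusted p = 0.282). Vehicle replicate 8 carried the highest hypoxia mean (8.34 log2 CPM), and without that 1 tumour the median of the list was -0.019. Cholesterol synthesis genes were negative in 18 of 24, with a median of -0.20. Fdft1, squalene synthase, had a log2 fold change of -0.53 (SE 0.20, adjusted p = 0.206) and Sqle, squalene epoxidase, of -0.45 (SE 0.18, adjusted p = 0.23) by edgeR. Circadian clock genes were negative in 13 of 17, with a median of -0.33, or -0.12 without vehicle replicate 8. Per3 had a log2 fold change of -0.51 (SE 0.18, adjusted p = 0.185), Cry2 of -0.51 (SE 0.18, adjusted p = 0.194), Dbp of -0.52 (SE 0.30, adjusted p = 0.393), Clock of 0.54 (SE 0.20, adjusted p = 0.195) and Arntl of 0.053 (SE 0.22, adjusted p = 0.927), and none passed the limit. The hour of collection is not given in the labels. Fibroblast genes had a median of 0.001, from -0.068 without vehicle replicate 8 to 0.055 without vehicle replicate 4, with 10 of 19 positive. Of the epithelial keratins, Krt19 had lowest, median and highest values of 0.218, 1.1 and 17.3 CPM in the vehicle tumours and 0, 0.124 and 2.97 CPM in the combination tumours, with a log2 fold change of -2.61 (SE 0.78, adjusted p = 0.147), and Krt20 had a log2 fold change of -0.99 (SE 0.33, adjusted p = 0.179). Of the 7 tested colorectal epithelium markers, 6 were negative, with a median of -0.52. Without the libraries with other tissue 4 were negative and 3 positive, with a median of -0.87. The mean of these markers was highest in vehicle replicate 6, the tumour with the adipocyte transcripts.

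Leaving out the libraries with other tissue kept 7 vehicle and 10 combination tumours (7 R and 3 NR). Of the 327 genes past the limit then, 326 were also tested with all libraries, all 326 had the same sign there and 293 had an unadjusted p under 0.05. Every tumour kept is also in the fit with all libraries, so this agreement was largely fixed in advance and is not independent support. The 8 genes called both ways are 80% of the calls with all libraries and 2.45% of the calls without the other tissue. Genes with the smallest p among the higher ones included Sp100, a nuclear body protein induced by interferon, with a log2 fold change of 0.95 (SE 0.19, adjusted p = 0.0318), and Ube2l6, the conjugating enzyme for ISG15, of 1.24 (SE 0.26, adjusted p = 0.0318). The non-classical MHC class I gene H2-T24, which has close copies, had a log2 fold change of 1.67 (SE 0.36, adjusted p = 0.0318) and the lysosomal membrane gene Lamp2 of 0.47 (SE 0.10, adjusted p = 0.0318). The kinase gene Vrk2 had a log2 fold change of 0.92 (SE 0.17, adjusted p = 0.0283). Pgap2 (0.75) and Zfp512b (0.68) were also chosen by the same rule, beside mt-Nd5.

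Among the lower genes, Bok, of the Bcl-2 family, had values of 36.5, 44.5 and 76.8 CPM (lowest, median and highest) in the vehicle tumours kept and 13.8, 23.7 and 49.6 CPM in the combination tumours kept. The fitted log2 fold change was -0.87 (SE 0.18, adjusted p = 0.0318) by edgeR. Rps2, a ribosomal protein gene with many near-identical copies, had a log2 fold change of -1.01 (SE 0.21, adjusted p = 0.0318), and the amino acid transporter gene Slc7a6 of -0.70 (SE 0.15, adjusted p = 0.0318). Ext1, which builds heparan sulfate, had a log2 fold change of -0.48 (SE 0.11, adjusted p = 0.0318), and Dph5, an enzyme of diphthamide synthesis, of -0.45 (SE 0.10, adjusted p = 0.0318). Cnbp (-0.50), Rpl38 (-0.55), Lsm14b (-0.83) and Tmed3 (-0.51) were lower too. With all libraries, the edgeR adjusted p of the genes named here other than mt-Nd5 was between 0.0639 and 0.228.

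The single agents were set beside the combination for the genes named above. By edgeR the combination differed from celecoxib alone in 5 of 13726 genes (0.0364%), all lower, and from anti-PD-1 alone in 69 (0.503%), 46 higher and 23 lower. Of the 5 genes, 2 were of the skin epithelium list, whose mean was 6.57 log2 CPM in celecoxib replicate 3. By the rule for other tissue, celecoxib replicates 1 and 3 and anti-PD-1 replicates 3, 9, 14, 15 and 16 held it. These libraries stayed in the comparisons of this paragraph, and their part in the counts was not tested. Against vehicle, celecoxib alone differed in 0 genes by edgeR (0.0%), with 314 at an unadjusted p under 0.05 (2.29%), 196 higher (1.43%) and 118 lower (0.86%). Anti-PD-1 alone differed in 12 (0.0874%), 2 higher (0.0146%) and 10 lower (0.0729%). These comparisons share tumours with each other. The interferon-gamma list had a median of 0.71 for the combination, 0.12 for anti-PD-1 alone and 0.21 for celecoxib alone, each against vehicle. For T cells the medians were 0.82, -0.14 and 0.043, and for mitochondrially encoded transcripts 0.74, 0.40 and 0.34. Other lists were as far or farther from 0 with a single agent. In the same order the medians were -0.52, -0.34 and -0.61 for hypoxia and glycolysis and -0.33, -0.84 and -0.16 for the circadian clock. The type I interferon list had 0.35, 0.21 and 0.31, so celecoxib alone was near the combination. Of the 10 called genes, the combination also differed from anti-PD-1 alone in 3 and from celecoxib alone in 1. Rap2b differed from anti-PD-1 alone by 0.38 (SE 0.092, adjusted p = 0.0372).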

How the data were processed

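RNA of whole tumours was made into QuantSeq 3′ FWD libraries, which read the 3′ end of transcripts, per the labels' protocols. The authors deposited raw counts per gene, and the submitters' processing notes name bcl2fastq, STAR, featureCounts, limma, GRCm38 and mm10. Versions, annotation and strand setting were not given in the sources used here. A table of log2 values that the authors also deposited was not used.

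Of 39179 genes, 37607 had a symbol and coordinates in the GENCODE annotation on GRCm38. edgeR 4.0.16 in R 4.3.3 fitted all 49 libraries by treatment (TMM, filterByExpr, robust quasi-likelihood, Benjamini-Hochberg adjustment over 13726 genes, limit 0.05). SE is the log2 fold change over the root of F. CPM are scaled by TMM. R and NR came from 1 fit of treatment and response (14247 genes), and the contrast of R against NR was added after the data were seen. Alternatives used DESeq2 1.42.0, limma-voom 3.58.1 and the settings in the closing section. The pipeline was tested on simulated counts. The most alike libraries, vehicle replicates 3 and 9, had r = 0.981 and differed with a chi-square per gene of 13.7, above sampling noise.

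The members and gene lists were chosen with earlier results of these data known. Named genes are those called, a panel of 34 genes, up to 3 members of smallest p in each of 34 lists, and the 10 higher and 10 lower genes of smallest p without other-tissue libraries with a mean of at least 5 CPM. Predicted genes and antigen receptor segments are left out of the last 2, and of the genes the list rule names only some are printed, chosen after their values were seen. Some genes that these rules name are not reported here. Lists got counts and medians, with no test.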

Additional observations from a re-analysis of the deposited data

Results flagged for a closer look

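Among 103 named genes examined, 14 had 1 of the 9 vehicle tumours far from the others, judged by its gap to the nearest tumour over the range of the group (0.493 or more). Chance alone marks about 1 in 20 genes. The 16 combination tumours were not tested, since the rule covers at most 10 samples. Values are log2(CPM + 1), a level. Vehicle replicate 6, which held adipocyte transcripts, stood apart in 3 genes. It was the highest for Prlr (7.338, next 2.431) and Zbtb16 (4.932, next 2.027). It was the lowest for mt-Nd1 (11.161, next 11.948). Vehicle replicate 8 stood apart in 11 genes. It was the highest for Ptgs2 (5.945, next 4.118), Nos2 (3.569, next 2.163), Ldha (11.465, next 10.216), Tpi1 (10.239, next 9.013), Dbp (7.753, next 6.874) and Bok (6.282, next 5.708). It was the lowest for Ptger2 (0.322, next 1.096), Ptger4 (1.906, next 3.108), Gbp7 (7.332, next 8.444), Tbx21 (1.087, next 2.163) and C1qa (6.359, next 8.027). In this tumour Ptgs2, Nos2 and the glycolytic genes were high, while Ptger4, Gbp7, Tbx21 and C1qa were low. What set these tumours apart was not tested.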

How the results depend on the processing

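The count of 10 genes past the limit depended on the setting. DESeq2 called 67, limma-voom 3, edgeR with RLE normalization 9, with library sizes without the mitochondrially encoded genes 2, without a filter on low counts 10, with a mean of at least 5 CPM 5, and with the 25 compared libraries alone 2. It was 327 without the libraries with other tissue, 57 when the muscle list was a covariate, 12 with the combination tumours labelled R and 1 with those labelled NR. With 1 library left out it ranged from 2 to 157. The cause was not tested. mt-Nd5 was called in all 11 other settings and Fkbp5 in 10, its adjusted p in edgeR reaching 0.375 with the NR tumours while its log2 fold change stayed between -0.97 and -0.73 over all settings.

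Over the other settings, 987 values kept their direction and side of the limit, 50 lost the limit, 54 gained it and 27 changed sign. Log2 fold changes changed sign as follows, and the cause was not tested. With the NR tumours alone the values were Ptgs1 (0.31), Ptgs2 (-1.43), Ptger2 (-1.12), Igtp (-0.26), Gbp2 (-0.057), Cxcl9 (-0.19), Cxcl10 (-0.20), B2m (-0.0064), Cd3e (-0.16), Cd8a (-0.46), Ccl4 (-0.42), Gzmb (-0.64), Pdcd1 (-1.06), Tnf (-0.13), Cxcl1 (-0.71), Nos2 (-2.27), Il1b (-0.40) and Arntl (-0.24). With the R tumours alone they were mt-Nd1 (-0.041) and Arg1 (0.069). Without the libraries with other tissue they were mt-Nd1 (-0.043), Ptgs2 (-0.78), Nos2 (-0.16) and Arntl (-0.11). With the muscle covariate they were Ptgs1 (0.028) and Ptgs2 (-0.47), and with limma-voom Ptgs2 (-0.051). With 1 library left out, mt-Nd1 from -0.029 to 0.11, Ptgs1 from -0.11 to 0.066, Il1b from -0.021 to 0.22, Arg1 from -0.41 to 0.058, Vegfa from -0.51 to 0.25 and Arntl from -0.039 to 0.20 crossed 0 (lowest to highest). Arg1 was positive without vehicle replicate 4 and Vegfa without vehicle replicate 8.

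No paired analysis was possible because the replicate numbers only name tumours in label order. Spread between tumours and the 4 NR tumours limit what can be called, and genes below about 1 CPM rest on few counts.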

Other observations

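Cell type lists without a comparison above are given by log2 fold change for the combination against vehicle, where no gene of them passed the edgeR limit. Each median is followed by its lowest and highest value with 1 library left out. Positive values were found for dendritic cells in 9 of 12 genes with a median of 0.41, from 0.29 without vehicle replicate 8 to 0.50 without combination replicate 15. Neutrophils had them in 4 of 5 genes with a median of 0.34, from 0.11 without combination replicate 14 to 0.46 without vehicle replicate 1. Mast cells had them in 6 of 8 genes with a median of 0.35, from 0.20 without combination replicate 1 to 0.44 without combination replicate 15, and B and plasma cells in 3 of 4 genes with a median of 0.14, from -0.021 without combination replicate 11 to 0.28 without vehicle replicate 5. Endothelium had them in 16 of 18 genes with a median of 0.17, from 0.042 without vehicle replicate 8 to 0.24 without vehicle replicate 6, and pericytes in 4 of 10 genes with a median of -0.048, from -0.12 without vehicle replicate 8 to 0.026 without vehicle replicate 4. The unfolded protein response had them in 13 of 20 genes with a median of 0.032, from 0.002 without vehicle replicate 3 to 0.12 without vehicle replicate 8, and skin epithelium in 3 of 5 genes with a median of 0.028, from -0.07 without vehicle replicate 6 to 0.12 without vehicle replicate 8. Adipocytes had them in 2 of 10 genes with a median of -0.95, from -1.3 without combination replicate 14 to 1.05 without vehicle replicate 6. The medians of B and plasma cells, pericytes, skin epithelium and adipocytes thus changed sign with 1 library. Red blood cells had positive values in 5 of 5 genes with a median of 0.89, from 0.70 without combination replicate 4 to 1.27 without vehicle replicate 3, and 2 had an unadjusted p under 0.05, where 9.37% of all genes were higher at that limit.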
